A study of Mus musculus with 9 samples.

Results

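The genes described here are 10 feedback regulators of MAP kinase signalling: the dual-specificity phosphatases Dusp1, Dusp2, Dusp4, Dusp5, Dusp6 and Dusp8, the Sprouty proteins Spry1, Spry2 and Spry4, and the Sprouty-related protein Spred1. They were listed by name, with no measured value in the rule, but the list was chosen with earlier results of these data known. Each was read from the array's probe set that names that gene alone, taking the brighter probe set for Dusp8, which has 2. All 10 were measured, out of 19933 genes with such a probe set. All 10 lay above the filter on dim genes on all 9 arrays, so they are among the 13207 genes tested. The question was whether they follow the immediate early genes, which the same pathway switches on.

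RNA came from the yolk sac, the membrane that feeds the early embryo and makes its first blood cells, at embryonic day 9.5 (E9.5). There were 3 samples of each genotype: KO embryos (Rnh1-/-), HET embryos (Rnh1+/-) and WT embryos (Rnh1+/+), all on a mixed SV 129/C57BL/6 background and untreated. Rnh1 encodes the ribonuclease inhibitor, a cytoplasmic protein that binds and blocks secreted-type ribonucleases. Each sample was hybridised to 1 Affymetrix whole-transcript array, and every value below is a log2 signal per probe set as deposited, so a difference of 1 is a doubling. The labels give neither the embryos' sex nor the number of yolk sacs behind each sample.

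A MAP kinase cascade passes a signal from a receptor at the cell surface, through Ras and a chain of kinases, to ERK, JNK or p38, which enter the nucleus and switch on immediate early genes. Among the genes switched on are brakes on the cascade itself: Dusp proteins remove the activating phosphates from the MAP kinases, and Sprouty and Spred proteins act further up, between the receptor and Raf. In vertebrate embryos several of these brakes, Dusp6, Spry1, Spry2 and Spry4 among them, are widely used as readouts of fibroblast growth factor signalling.

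The knockout was visible in the targeted gene. Rnh1 averaged 6.64 ± 0.32 in KO, 9.75 ± 0.01 in HET and 10.38 ± 0.05 in WT yolk sacs (SD, n = 3 each). In KO against WT the log2 difference was -3.73, a lower bound on the fall because KO 1 lay below the level of the filter (limma, adjusted p = 4.61e-06). The HET difference of -0.62 from WT had an unadjusted p of 0.00104 and an adjusted p of 0.939 (limma). Every HET array lay below every WT array for Rnh1, a pattern found in 5.98% of all genes tested. The KO arrays stood apart from the other 6 on the first principal component, which held 40.7% of the variance, and on the second, which held 27.2%, KO 1 and WT 2 lay at one end and HET 3 at the other.

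The stretch from 250 bases before to 50 bases after the transcription start is printed for 5 members. It is from RefSeq (build GRCm38.p6), 5′ to 3′ on the gene's own strand. Dusp1, Dusp2, Dusp8 and Spred1 are shown because they rose in KO yolk sacs, and Dusp5 because it did not and carries the site through which serum response factor acts on many immediate early genes. Capitals mark the cAMP response element (TGACGTCA), its core TGACG and the CArG box, on either strand.
Dusp1 (chr17:26508423-26508722, minus strand): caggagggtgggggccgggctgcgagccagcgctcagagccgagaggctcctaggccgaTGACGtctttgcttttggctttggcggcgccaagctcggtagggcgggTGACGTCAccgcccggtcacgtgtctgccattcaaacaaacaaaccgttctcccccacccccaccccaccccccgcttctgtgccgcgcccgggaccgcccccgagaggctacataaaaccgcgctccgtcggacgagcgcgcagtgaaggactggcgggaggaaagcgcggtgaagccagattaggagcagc
Dusp2 (chr2:127335909-127336208, plus strand): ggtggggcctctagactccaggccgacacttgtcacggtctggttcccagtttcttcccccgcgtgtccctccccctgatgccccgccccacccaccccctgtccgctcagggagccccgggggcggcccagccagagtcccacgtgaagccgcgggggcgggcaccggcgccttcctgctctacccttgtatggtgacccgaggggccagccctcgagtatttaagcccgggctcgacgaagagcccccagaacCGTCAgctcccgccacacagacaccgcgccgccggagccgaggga
Dusp8 (chr7:142095235-142095534, minus strand): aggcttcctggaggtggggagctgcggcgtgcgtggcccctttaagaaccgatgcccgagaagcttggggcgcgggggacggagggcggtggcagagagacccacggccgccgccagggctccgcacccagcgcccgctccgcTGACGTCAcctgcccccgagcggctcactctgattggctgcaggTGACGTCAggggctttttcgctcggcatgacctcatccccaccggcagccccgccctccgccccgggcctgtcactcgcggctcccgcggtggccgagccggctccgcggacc
Spred1 (chr2:117120821-117121120, plus strand): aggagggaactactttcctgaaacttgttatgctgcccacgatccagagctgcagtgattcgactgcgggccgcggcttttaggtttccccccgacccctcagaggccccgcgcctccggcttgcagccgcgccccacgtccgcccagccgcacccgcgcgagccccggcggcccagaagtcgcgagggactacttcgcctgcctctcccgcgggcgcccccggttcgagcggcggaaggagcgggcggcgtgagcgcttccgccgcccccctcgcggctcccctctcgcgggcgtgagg
Dusp5 (chr19:53528895-53529194, plus strand): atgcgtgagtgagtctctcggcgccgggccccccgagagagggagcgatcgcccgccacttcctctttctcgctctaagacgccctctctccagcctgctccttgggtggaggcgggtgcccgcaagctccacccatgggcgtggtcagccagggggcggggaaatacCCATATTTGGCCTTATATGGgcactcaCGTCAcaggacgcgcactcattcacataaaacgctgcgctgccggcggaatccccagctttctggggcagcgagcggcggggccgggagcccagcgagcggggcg

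Promoters of 8 of the 10 members were read here from the RefSeq table, all but those of Dusp4 and Spry4, and each holds 300 bases. Promoters on chromosome 18, where Spry4 and the immediate early gene Egr1 lie, were left out of the gene lists. They were kept in the share over all promoters. The full cAMP response element, TGACGTCA, was in 2 of the 8, once in Dusp1 and at a pair of places in Dusp8, and in 1.79% of all 32851 promoters of that length. Its core TGACG, which the full element contains, was in 4 of the 8 (Dusp1, Dusp2, Dusp5 and Dusp8) and in 20.8% of all promoters. The CArG box was in Dusp5 alone of the 8, as a pair of adjoining matches that begin 82 and 72 bases before the start, and in 1.63% of all promoters. The AP-1 site TGANTCA and the ETS site CCGGAAG were in 0 of the 8, against 7.81% and 8.86% of all promoters. The early growth response site GCGNGGGCG was in Dusp2 alone, against 5.55% of all promoters. All motifs were searched on both strands. The Spred1 promoter held no match to any of these motifs. Of 26 immediate early genes with a promoter read here, 3 held the full cAMP response element, 18 its core, 3 a CArG box and 11 the early growth response site. A gene counted there if any of its promoters matched, and Csrnp1, Egr2 and Maff have more than 1, while each member has 1. A match of letters is a description of the sequence and does not show that a factor binds there.

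In KO against WT yolk sacs 4 of the 10 members rose, 0 fell and 6 did not pass the test, where 23.5% of all genes tested passed, 8.27% rising and 15.2% falling. The 4 were Dusp1, Spred1, Dusp8 and Dusp2, by 1.32-fold to 1.54-fold. A further 3, Spry2, Spry4 and Dusp4, had differences of similar size, 0.41 to 0.49, that did not pass, and the remaining 3, Dusp5, Dusp6 and Spry1, differed by 0.06 or less. The median log2 difference of the 10 was 0.42, against -0.0046 over all genes tested. Because the list was chosen with earlier results of these data known, its counts and median are descriptive. For 6 members every KO array lay above every WT array, a pattern found in 15.8% of all genes tested, and for 0 members every KO array lay below, a pattern found in 24.7%. The arrays measure whole yolk sacs, so a change in the number of cells of a type and a change in RNA per cell cannot be told apart.

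**Figure D1:**
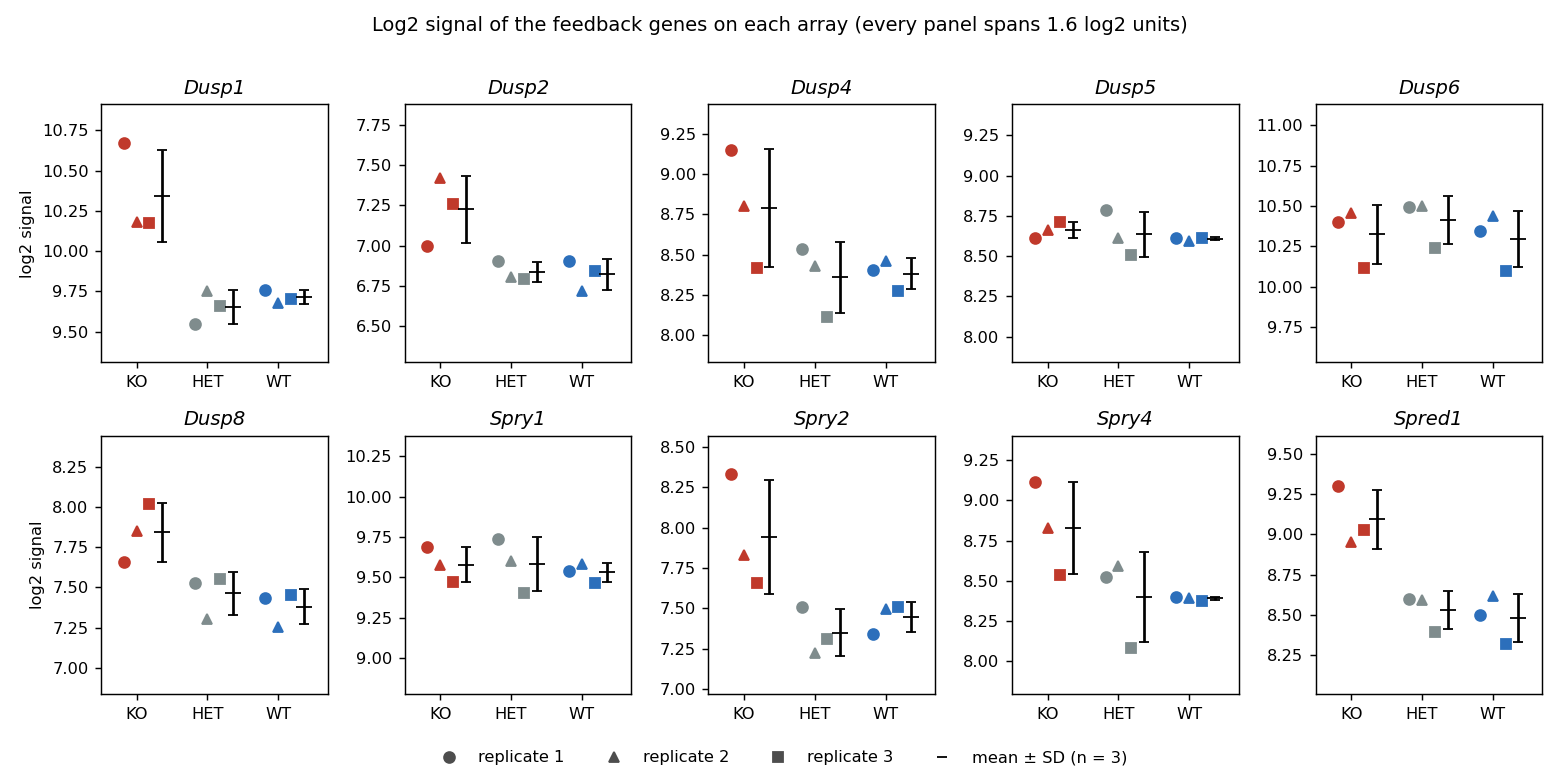
Log2 signal (vertical axis) of each of the 10 members on every array, with KO, HET and WT samples from left to right, 1 point per array and a bar at each mean. KO points lie above all WT points for Dusp1, Dusp2, Dusp8, Spry2, Spry4 and Spred1, the genotypes overlap for Dusp6 and Spry1, and for Dusp5 the lowest KO point equals the highest WT points within the range of HET.

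Among the nuclear phosphatases, Dusp1 moved most. It encodes a phosphatase of p38, JNK and ERK and is itself an immediate early gene. Its signal was 10.67, 10.18 and 10.17 in the KO samples, 9.55, 9.75 and 9.66 in the HET samples and 9.76, 9.68 and 9.71 in the WT samples. All KO samples were above all others, KO 1 most of all, and HET and WT samples overlapped. The KO against WT difference was 0.63, with a 95% interval from 0.34 to 0.91, a 1.54-fold rise (limma, adjusted p = 0.00914). Without KO 1 it was 0.46 and still passed, with an adjusted p of 0.00437 (limma).

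Dusp2, a nuclear phosphatase of ERK and p38 known best from activated immune cells, was a dim gene. It gave 7.001, 7.42 and 7.26 in KO, 6.91, 6.81 and 6.80 in HET and 6.91, 6.72 and 6.84 in WT samples. KO samples lay above all others, with KO 1 closest to them. The rise in KO against WT was 0.40 (95% interval 0.17 to 0.64, 1.32-fold; limma, adjusted p = 0.0223). The call was lost without KO 2, KO 3, WT 2 or WT 3, with adjusted p values of 0.0507 to 0.0784 (limma). It was also lost when only KO and WT arrays were fitted, at 0.0575, and with the filter at the array median Dusp2 was not tested.

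Dusp4, a nuclear phosphatase of ERK and JNK, gave 9.15, 8.80 and 8.42 in KO, 8.54, 8.43 and 8.11 in HET and 8.40, 8.46 and 8.28 in WT samples. KO 1 and KO 2 lay above all other samples, and KO 3 lay among the WT and HET values. The difference of 0.41 from WT (95% interval 0.01 to 0.80) did not pass (limma, adjusted p = 0.12). It passed without KO 3, at 0.59, and with array weights, at 0.33. Without KO 1 it was 0.23.

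Dusp5, a nuclear phosphatase selective for ERK, gave 8.61, 8.66 and 8.71 in KO, 8.79, 8.61 and 8.51 in HET and 8.61, 8.60 and 8.61 in WT samples. HET samples spanned the range of the others, and no KO sample lay below a WT sample. KO 1, HET 2, WT 1 and WT 3 carried 1 identical value, 8.6136, and 47.2% of all probe sets hold a value repeated between arrays. The KO against WT difference was 0.06, and its 95% interval from -0.11 to 0.22 leaves out rises as large as that of Dusp1 (limma, adjusted p = 0.605).

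Of the phosphatases outside the nucleus, Dusp6 is selective for ERK and is the one most used as a marker of growth factor signalling in embryos. Its signal was 10.40, 10.45 and 10.11 in KO, 10.49, 10.50 and 10.24 in HET and 10.34, 10.44 and 10.10 in WT samples. The third array of each genotype was the lowest, and KO values lay within the range of the others. Its KO against WT difference was 0.03 with a 95% interval from -0.24 to 0.30 (limma, adjusted p = 0.875), and it was -0.04 with each array centred on its median.

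Dusp8, which acts on JNK and p38, rose. Its signal was 7.66, 7.85 and 8.02 in KO, 7.53, 7.31 and 7.55 in HET and 7.43, 7.26 and 7.45 in WT samples. The KO samples were above all others, with the highest in KO 3, which was the lowest of the KO samples for 6 of the 10 members. The rise over WT was 0.46 (95% interval 0.22 to 0.70, 1.38-fold; limma, adjusted p = 0.0153), and it did not pass without WT 2, where the adjusted p was 0.056 (limma). Its dimmer probe set, below the filter level on every array, gave 5.62, 5.74 and 5.85 in KO, 5.62, 5.51 and 5.80 in HET and 5.43, 5.36 and 5.16 in WT samples, so there KO overlapped HET but not WT.

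Dusp8 lies on chromosome 7, as does Rnh1, with 47 annotated genes between them. Of the 30 of these that were tested, 1 rose and 3 fell in KO against WT, where 8.27% of all genes tested rose and 15.2% fell. Whether its place on the chromosome bears on the Dusp8 result was not tested.

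Spred1, which carries neurofibromin to the membrane and so helps to switch Ras off, had the smallest adjusted p of the 10 members. Its signal was 9.30, 8.95 and 9.03 in KO, 8.60, 8.59 and 8.39 in HET and 8.50, 8.62 and 8.32 in WT samples. Every KO sample exceeded every HET and WT sample by a gap wider than the spread within any genotype except KO itself. The rise was 0.61 (95% interval 0.36 to 0.86, 1.53-fold; limma, adjusted p = 0.00597). Like Dusp1, Spred1 passed against WT and against HET with any 1 array left out and under all 10 alternative settings.

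The Sproutys, adaptor proteins that restrain signalling from receptor tyrosine kinases, differed between KO and WT by 0.05 to 0.49, and none of the 3 passed. Spry1 gave 9.69, 9.58 and 9.47 in KO, 9.74, 9.60 and 9.40 in HET and 9.54, 9.58 and 9.47 in WT samples, with no order between the genotypes. The difference from WT was 0.05 (95% interval -0.16 to 0.26; limma, adjusted p = 0.73).

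Spry2 gave 8.33, 7.83 and 7.65 in KO, 7.51, 7.23 and 7.31 in HET and 7.34, 7.49 and 7.51 in WT samples. All KO samples lay above all others, with KO 1 far above KO 2 and KO 3. The difference from WT was 0.49 with a wide 95% interval, 0.14 to 0.85, and did not pass (limma, adjusted p = 0.0506). Without KO 1 it was 0.30. It passed without KO 3, with the filter at the array median and with array weights.

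Spry4 gave 9.11, 8.83 and 8.54 in KO, 8.52, 8.59 and 8.08 in HET and 8.40, 8.39 and 8.38 in WT samples. KO samples were above all WT samples, but KO 3 lay below HET 2. The difference from WT was 0.44 (95% interval 0.07 to 0.80) and did not pass (limma, adjusted p = 0.0784). It passed without KO 3 or HET 3, with quantile normalization and with array weights. Spry2, Spry4 and Dusp4 all had their highest value in KO 1 and their lowest KO value in KO 3, as did Dusp1. Spry1 had the same order among its KO samples.

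**Figure D2:**
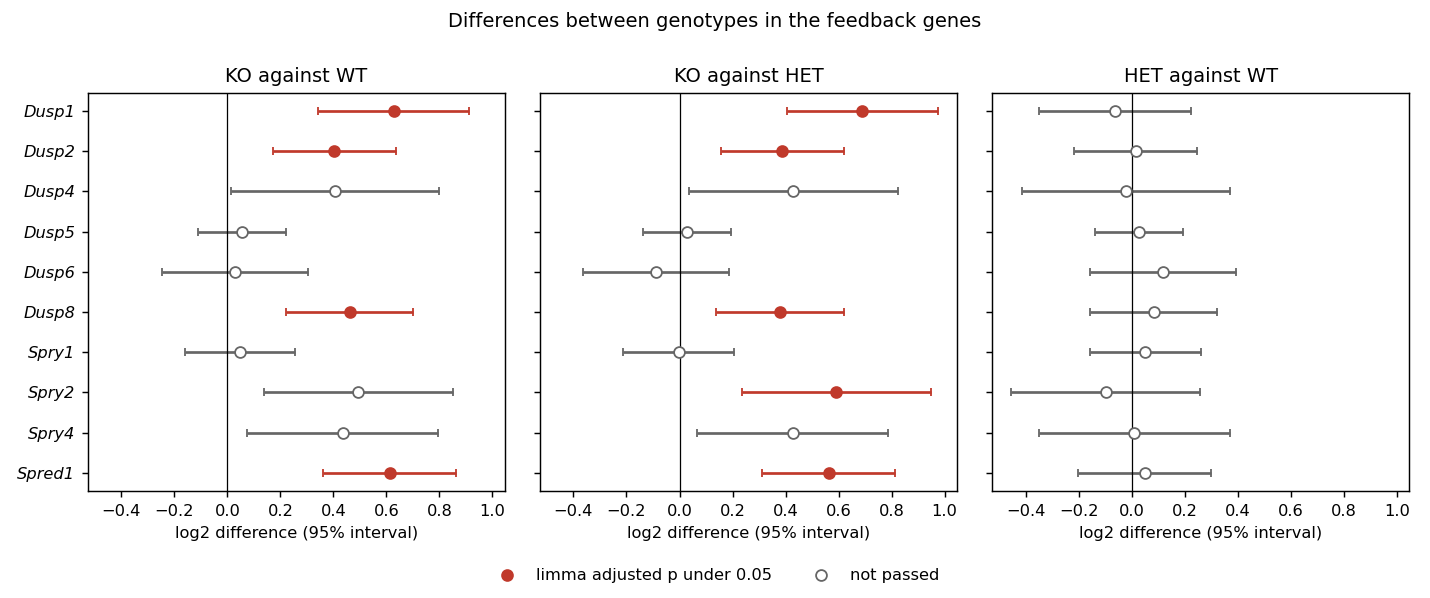
Log2 difference of each member with its 95% interval from limma (horizontal axis) in KO against WT, KO against HET and HET against WT, from left to right, with filled points for an adjusted p under 0.05. Dusp1, Dusp2, Dusp8 and Spred1 are filled against both WT and HET, Spry2 against HET only, and no point is filled in HET against WT.

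KO against HET shares its KO samples with KO against WT and so is not a separate repeat of it. There 5 of the 10 members rose, 0 fell and 5 did not pass, where 21.8% of all genes tested passed, 8.17% rising and 13.6% falling. Dusp1 rose by 0.69 (95% interval 0.40 to 0.98; limma, adjusted p = 0.00628) and Spred1 by 0.56 (0.31 to 0.81; adjusted p = 0.00862). Spry2 rose by 0.59 (95% interval 0.24 to 0.95; limma, adjusted p = 0.0277), a call lost without HET 2 or HET 3 and with only KO and HET arrays fitted. Dusp2 rose by 0.39 and Dusp8 by 0.38, with limma's adjusted p at 0.0272 and 0.0341. Both calls rest on the arrays used: that of Dusp2 was lost without KO 2, KO 3, HET 1, HET 2 or HET 3, and that of Dusp8 without KO 2, KO 3, HET 1, HET 2 or WT 1. Both were also lost with only KO and HET arrays fitted and with the value of Eif2s3y, a Y-linked gene, as a covariate, and that of Dusp8 without the filter. With the mean of its pair of probe sets Dusp8 differed by 0.24 and did not pass (limma, adjusted p = 0.107). For 5 members KO and HET samples did not overlap, with KO higher, a pattern found in 15.7% of all genes tested, and for 0 members KO lay wholly below, against 21.4%.

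With 1 copy of Rnh1 missing, no member passed the test. In HET against WT, limma called 0 of the 10 members and 0 of all 13207 genes (0.0% called), with 327 genes, or 2.48%, and 0 members at an unadjusted p under 0.05. Rnh1 itself was among the genes not called, so the lack of a call here does not show the lack of a change. For 0 members did the HET samples lie wholly above or wholly below the WT samples, against 4.25% and 5.98% of all genes. The members' differences ran from -0.10 for Spry2 to 0.12 for Dusp6, with 7 above 0 and 3 below, and their median was 0.02. The interval for Dusp1, -0.35 to 0.22, and that for Spred1, -0.20 to 0.30, lie wholly below the KO against WT estimates of the same genes. Array weights gave 6 calls over all genes and none among the members.

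Among the immediate early genes more than the background share rose in KO against WT. Of 35 listed, 34 were tested, all but Nr4a3, which was dim, and 19 rose, 1 fell and 14 did not pass, against the 8.27% and 15.2% of all genes given above. Their median difference was 0.36. Jun, a subunit of AP-1, rose by 1.42 (limma, adjusted p = 0.00131). The 8 genes with the smallest p also held Srf, the serum response factor, up 0.53, and its target Ccn1, a matrix protein, up 1.25. Trib1, a pseudokinase, rose by 0.55, Plk2, a kinase, by 0.95, Ier5 by 0.60, the AP-1 subunit Jund by 0.61 and Gadd45b, a stress-induced regulator, by 1.06, all with adjusted p under 0.005 (limma). The gene that fell was Klf10, by 0.27 (limma, adjusted p = 0.038), named here after its value was seen.

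The average over the 34 tested immediate early genes was 8.53, 8.59 and 8.45 in KO, 8.02, 8.10 and 8.06 in HET and 8.15, 8.03 and 8.08 in WT samples. The KO samples stood clear of the rest, as they did for Dusp1, Dusp2, Dusp8, Spry2 and Spred1. Within the KO samples the order of the arrays differed between the gene groups. KO 2 was highest for 18 of the 34 immediate early genes and for 2 of the 10 members, Dusp2 and Dusp6. KO 1 was highest for 12 of the 34 and for 6 members, Dusp1, Dusp4, Spry1, Spry2, Spry4 and Spred1. KO 3 was lowest for 20 of the 34 and for 6 members. These are counts over 3 arrays and were not tested. They were not set beside the same counts over all genes, and KO 1 also lay at one end of the second principal component. Whether these orders are particular to either gene group is therefore not known.

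Among the WT samples, WT 1 stood out for a pair of the classical immediate early genes, both named after their values were seen. Egr1 gave 8.85, 8.90 and 8.38 in KO, 7.34, 7.73 and 7.37 in HET and 8.14, 7.08 and 7.23 in WT samples, and it rose in KO against WT by 1.22 (limma, adjusted p = 0.0117). Fos, the partner of Jun, gave 7.59, 7.87 and 7.54 in KO, 6.97, 7.30 and 7.33 in HET and 7.85, 7.10 and 6.99 in WT samples. WT 1 was thus as high as the KO samples for Fos, and the Fos difference of 0.35 did not pass (limma, adjusted p = 0.251). On WT 1, where Egr1 lay 0.66 and Fos 0.54 above the WT mean, the 10 members lay between -0.11 (Spry2) and 0.09 (Dusp2) of theirs. Egr1 and Fos do not stand for the whole immediate early list there. Its average was 8.15 on WT 1, 8.03 on WT 2 and 8.08 on WT 3. WT 1 was the highest WT array for 12 of the 34 genes, WT 2 for 11 and WT 3 for 11. On KO 1 the members lay between 0.01 (Dusp5) and 0.96 (Dusp1) above the WT mean, with Egr1 1.36 and Fos 0.28 above.

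**Figure D3:**
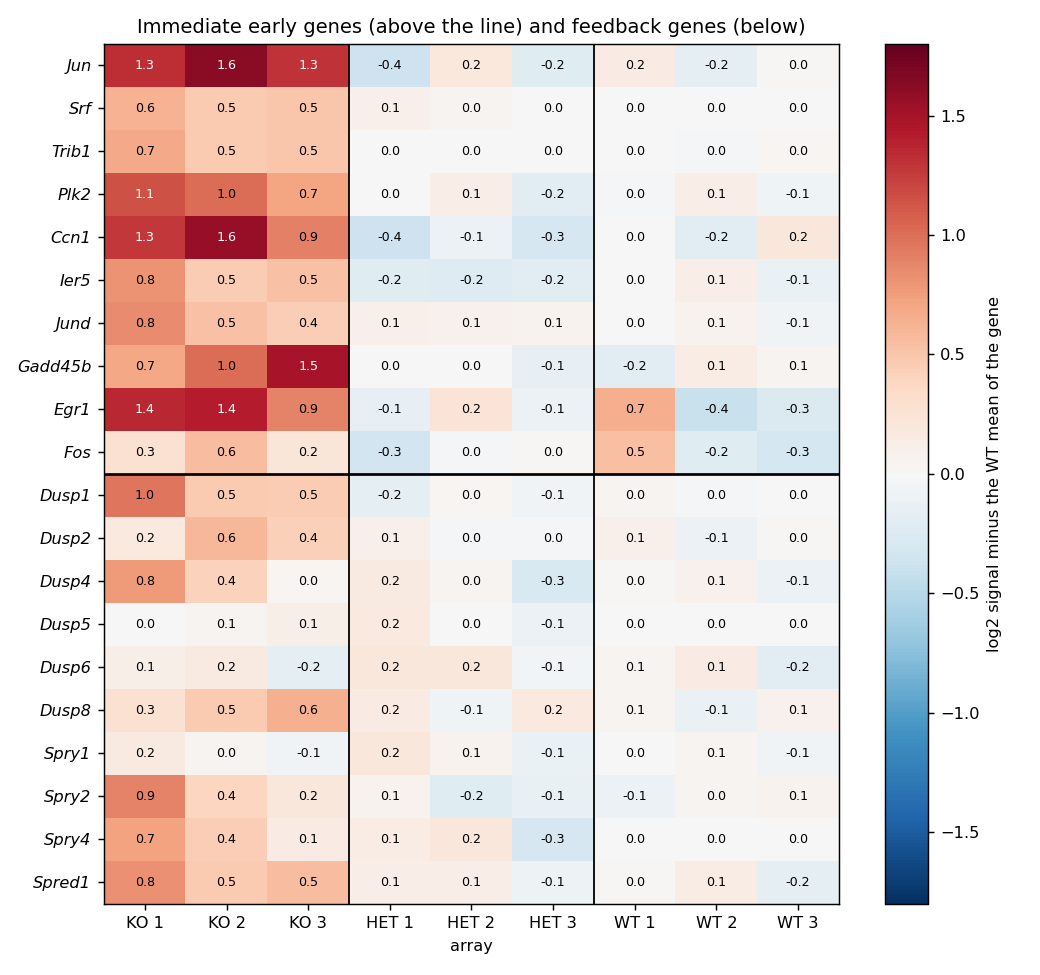
Heat map of the log2 difference from the WT mean on each array (columns, KO, HET and WT from left to right) for the 10 members and for immediate early genes (rows), coloured from lower to higher. Egr1 and Fos, picked after their values were seen, are high on WT 1, where no member is more than 0.09 above its WT mean. WT 1 was the highest WT array for 12 of the 34 tested immediate early genes. The KO columns are the highest for most immediate early genes shown and for Dusp1, Dusp2, Dusp8, Spry2 and Spred1.

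Whether the members follow the immediate early genes among samples that keep Rnh1 was asked over the 6 HET and WT arrays, with 10 relations in the family. For Dusp1, Pearson's r with the immediate early average was 0.83 (two-sided exact permutation p = 0.0347, 0.347 after Benjamini-Hochberg adjustment). Spearman's rho was 0.94 (exact permutation p = 0.0167, adjusted 0.167). The other 9 members had r between -0.58 (Spry2) and 0.40 (Dusp2), with adjusted p = 0.885 for each in the exact permutation test. Without HET 1 and WT 1, the arrays farthest from the median of the average, r was 0.77 for Dusp1, 0.85 for Dusp2 and 0.45 for Spry4. There it turned sign for Dusp5 (-0.31 with all 6 arrays, 0.33 without these), Dusp8 (-0.0762 and 0.16) and Spry1 (-0.34 and 0.0352), so the values of Dusp2, Spry4, Dusp5, Dusp8 and Spry1 rest on these arrays. None of the 10 relations passed. Over the 6 arrays the immediate early average ran only from 8.02 (HET 1) to 8.15 (WT 1). The medians of the same arrays ran from 7.07 (WT 2) to 7.16 (HET 3). With so little change to follow, the lack of a pass does not show the lack of a relation. After quantile normalization of the arrays Dusp1 alone passed, with r = 0.92 and an adjusted p of 0.0139 in the exact permutation test, the smallest that 6 arrays allow over 10 relations.

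Around the members, a few of the other phosphatases and inhibitors of the pathway rose. Of 9 other MAP kinase phosphatases tested, 3 rose in KO against WT and 0 fell, against 8.27% and 15.2% of all genes, with a median of 0.11. Dusp7, a cytoplasmic ERK phosphatase close to Dusp6, gave 10.97, 10.92 and 11.005 in KO, 10.66, 10.70 and 10.54 in HET and 10.57, 10.59 and 10.61 in WT samples. It had all KO samples above the others and rose by 0.37 (limma, adjusted p = 0.00349). Dusp10, a JNK and p38 phosphatase, rose by 0.35 and Ptpn7, an ERK phosphatase of blood cells, by 0.29. Dusp3 differed by -0.27 without passing (limma, adjusted p = 0.0644). It did pass with the replicate number as a block (limma, adjusted p = 0.0211), with centred arrays, with array weights and without HET 3. The call of Ptpn7 was lost without KO 2, WT 1 or WT 3 and with centred arrays.

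Of 16 other inhibitors of Ras and ERK signalling, 3 rose and 0 fell, against 8.27% and 15.2% of all genes, with a median of 0.09. Cbl, a ubiquitin ligase that turns receptors over, rose by 0.31 (limma, adjusted p = 0.00544), with 9.70, 9.68 and 9.71 in KO, 9.31, 9.32 and 9.20 in HET and 9.34, 9.42 and 9.40 in WT samples. Il17rd, a membrane inhibitor of fibroblast growth factor signalling also called Sef, rose by 0.40, and Spred3, a relative of Spred1, by 0.30 (limma, adjusted p = 0.0125 and 0.0185). The Spred3 call was lost without KO 2, KO 3, WT 1 or WT 2. Lrig3, a membrane protein with leucine-rich repeats, differed by -0.29 and did not pass (limma, adjusted p = 0.109), though it passed with array weights and without WT 3.

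Of 16 tested genes of the Ras to ERK cascade, 0 rose and 2 fell in KO against WT, where 8.27% of all genes rose and 15.2% fell, with a median of -0.04. The 2 were the Ras relative Mras, by 0.34, and Map2k1, the kinase that phosphorylates ERK, by 0.29. Both calls were lost without WT 1 or WT 2, that of Mras also without KO 3 and that of Map2k1 also without KO 2. Both were lost too with only KO and WT arrays fitted and without KO 1 and WT 2 together. The Mras call was also lost with the mean of probe sets, and the Map2k1 call with quantile normalization. Sos2 differed by -0.22 and Grb2 by 0.15, and neither passed (limma, adjusted p = 0.138 and 0.182), though Sos2 passed with array weights and without KO 1. Of 15 JNK and p38 pathway kinases, 1 rose and 2 fell, with a median of -0.11, and in both lists the number that fell is close to the share of all genes. Map2k6, which activates p38, gave 8.26, 8.06 and 8.18 in KO, 8.77, 8.62 and 8.50 in HET and 8.85, 9.07 and 8.73 in WT samples and fell by 0.72 (limma, adjusted p = 0.00258). Map3k5, a stress-activated kinase also called ASK1, fell by 0.77. Map3k11 rose by 0.39, a call lost with any 1 WT array left out, with centred arrays or with only KO and WT arrays fitted. Mapk13 differed by -0.25 without passing (limma, adjusted p = 0.0878), though it passed with centred arrays and with array weights.

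Of 18 growth factor receptors, 3 rose and 3 fell, against 8.27% and 15.2% of all genes, with a median of 0.02. Flt1, a receptor for vascular endothelial growth factor, fell by 0.46 (limma, adjusted p = 0.00565), and Igf1r, the receptor of insulin-like growth factors, rose by 0.50 (adjusted p = 0.00672). Csf1r, the macrophage growth factor receptor, fell by 0.39, a call lost without WT 2, alone or together with KO 1. The endothelial receptor Tek fell by 0.30, a call lost without KO 2, KO 3 or any 1 WT array. Of 7 fibroblast growth factors tested, 1 rose and 1 fell, read against the same shares: Fgf1 fell by 0.89 (limma, adjusted p = 0.00267), and Fgf18 rose by 0.37, a call lost with any of 5 arrays left out. The Fgf18 call was also lost with centred arrays, with only KO and WT arrays fitted and without KO 1 and WT 2 together. Fgf9 and Fgf15 differed by 0.25 and 0.39 and did not pass (limma, adjusted p = 0.0658 and 0.0962), though both passed with array weights, Fgf9 also without WT 3 and Fgf15 also without KO 1.

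Of 10 ETS factors, nuclear targets of ERK, 3 rose and 0 fell in KO against WT, against 8.27% and 15.2% of all genes, with a median of 0.17. Erf, a repressor that ERK removes from the nucleus, gave 10.54, 10.26 and 9.92 in KO, 9.81, 9.81 and 9.67 in HET and 9.67, 9.76 and 9.59 in WT samples. KO 1 was the highest and KO 3 the lowest of the KO samples, the order also seen for Dusp1, Dusp4, Spry1, Spry2 and Spry4. How many of all genes have this order was not counted. The rise of Erf was 0.57 (limma, adjusted p = 0.0173), a call lost without KO 2, WT 1 or WT 3. Etv4 and Etv1, transcription factors induced by fibroblast growth factors, rose by 0.45 and 0.35 (limma, adjusted p = 0.0367 and 0.0344), and both calls were lost under 5 or more of the 9 arrays left out. Both were also lost without the filter, with centred arrays, with quantile normalization, with only KO and WT arrays fitted and without KO 1 and WT 2 together. Etv3 differed by 0.22 and did not pass (limma, adjusted p = 0.0606), though it passed with the filter at the array median, quantile normalization, array weights and without HET 3.

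**Figure D4:**
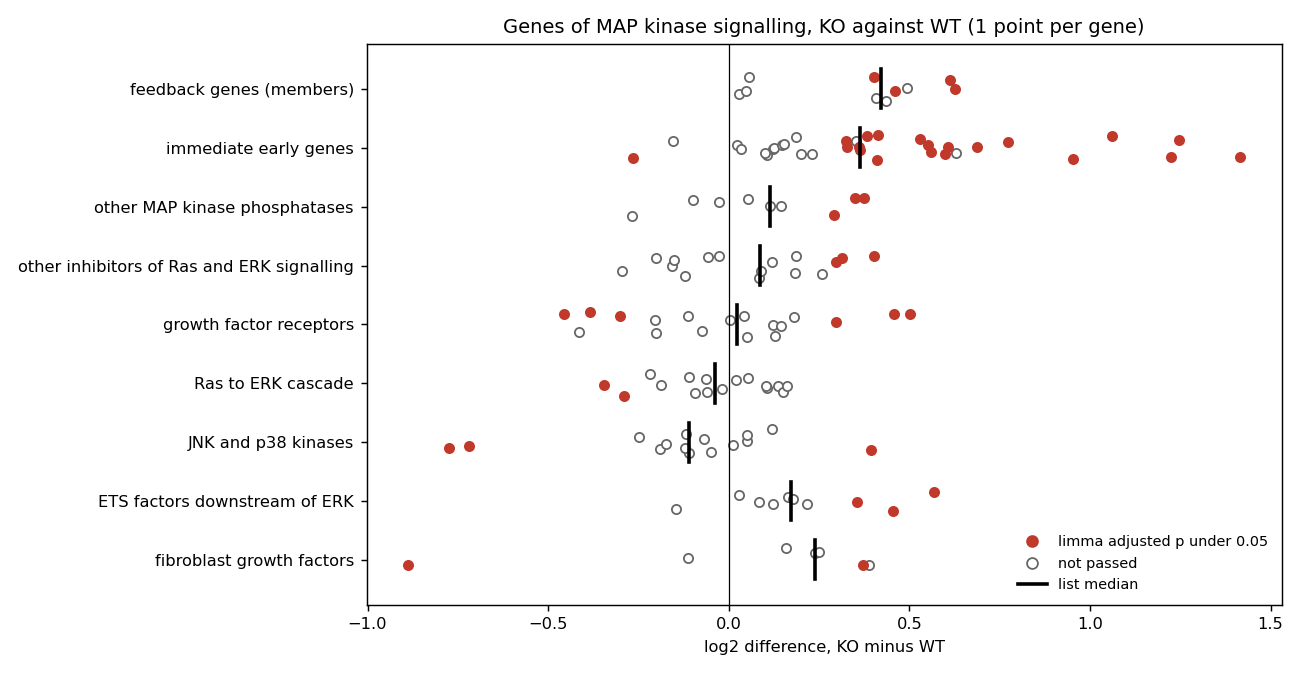
Log2 difference in KO against WT (horizontal axis) of every tested gene of the members and of each pathway list (rows), with filled points for an adjusted p under 0.05 in limma and a bar at each list's median. The medians of the members, 0.42, and of the immediate early genes, 0.36, lie to the right of those of the other lists, which run from -0.11 for the JNK and p38 kinases to 0.24 for the fibroblast growth factors.

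Some lists of cell type markers also differed between KO and the other samples, and the share of all genes called in KO against WT was 8.27% higher and 15.2% lower. The average over 11 visceral endoderm markers, the outer layer of the yolk sac, was 12.12 to 12.29 in KO, 12.44 to 12.61 in HET and 12.47 to 12.57 in WT samples, and 4 fell and 0 rose in KO against WT. The average over 8 markers of extraembryonic mesoderm, the inner layer, was 10.71 to 10.77 in KO, 10.52 to 10.62 in HET and 10.47 to 10.57 in WT samples, with 3 rising and 1 falling. Endothelial markers (8 of 8 tested) averaged 9.73 to 9.82 in KO, 9.64 to 9.84 in HET and 9.71 to 9.84 in WT samples, overlapping throughout, with 1 rising and 1 falling. The 7 tested markers of primitive erythroid cells averaged 11.09 to 11.57 in KO, 11.46 to 11.77 in HET and 11.54 to 11.73 in WT samples, where KO overlapped the others, and 3 fell. The 4 tested of 7 macrophage markers averaged 7.71 to 8.03 in KO, 8.30 to 8.51 in HET and 8.31 to 8.57 in WT samples, and 3 fell.

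Among tissues that lie next to the yolk sac, 4 of 12 trophoblast markers were tested and averaged 8.65 to 9.27 in KO, 6.90 to 9.09 in HET and 8.30 to 8.53 in WT samples. Of the trophoblast list, Tpbpa, Psg17, Cts7 and Ctsq did not pass the filter. The 6 tested of 8 decidua markers averaged 8.33 to 8.69 in KO, 7.92 to 8.60 in HET and 8.38 to 8.83 in WT samples. The 7 parietal endoderm markers averaged 9.27 to 9.60 in KO, 9.30 to 9.36 in HET and 9.37 to 10.59 in WT samples, high on WT 1 and WT 3. The part of these cell types in the rise of Dusp1, Dusp2, Dusp8 and Spred1 was not tested. Without KO 1 and WT 2, which stood apart, Dusp1 rose by 0.44, Spred1 by 0.58, Dusp8 by 0.49 and Dusp2 by 0.46 in KO against WT, and all 4 passed in limma.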

How the data were processed

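Yolk sac RNA from 3 KO, 3 HET and 3 WT samples was profiled on 1 array each. The labels' protocols describe amplification of 100 ng of RNA, after which 5.5 µg of cDNA was fragmented and labelled with biotin. The authors deposited log2 signals per probe set, and the submitters' processing notes name RMA and Affymetrix Expression Console (version 1.2.1.20). For the probe annotation a genome build is not named in the sources used here, and the promoters' build is that of RefSeq. Because RMA normalizes between arrays, a shift common to most genes would not be seen.

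Of 28350 probe sets, 21780 named 1 gene symbol, 1618 several and 4952 none. Probe sets with 1 symbol gave 19933 genes, by the probe set with the highest mean. A gene was tested if it lay above the 40th percentile of its array (a log2 signal of 6.35 to 6.57) on at least 3 of 9 arrays, which kept 13207 genes. The genotypes were set against each other in R 4.3.3 with limma 3.58.1, with all 9 arrays in 1 model, Benjamini-Hochberg adjustment over all tested genes and a threshold of 0.05. The script was tested on simulated data. Nothing in the labels says that the samples are separate animals, and p-values reflect only how much these samples differ, which may be technical. For arrays, their number limits the precision.

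The members and lists were chosen with earlier results of these data known. Named genes were Rnh1, all members, the 8 immediate early genes with the smallest p in KO against WT, and up to 4 such genes of each other list. Some list genes had no probe set of their own and were not analysed here. Some genes stand in more than 1 list: Kdr and Tek among receptors and endothelium, Csf1r among receptors and macrophages, Hand1 among mesoderm and trophoblast. Alternatives were the mean of probe sets, all genes unfiltered, the filter set at each array's median, centred arrays, quantile normalization, array weights, only the genotypes compared, the replicate number as a block, the Y-linked gene Eif2s3y as a covariate, KO 1 and WT 2 left out, and each array left out in turn.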

Additional observations from a re-analysis of the deposited data

How the results depend on the processing

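With 3 arrays a genotype, precision is limited by their number, and dim genes such as Dusp2 lie close to the filter. The cause of the changes below was not tested. The count of genes called in KO against WT was 3101, 5753 with array weights, whose fit did not fully converge, and 1669 to 3842 with 1 array left out, the lowest without WT 1. Centred arrays gave 577 higher and 2529 lower calls and quantile normalization 1471 and 1939, against 1092 and 2009. Of the members, 4 were called, 7 with array weights, 7 with the replicate block and 2 to 6 with 1 array left out, the lowest without WT 2. With the block Dusp4, Spry2 and Spry4 passed too. The labels do not say that a number marks a shared litter or day. Over 9 same-numbered pairs, the correlations of the arrays' deviations from their genotype means ran from -0.257 to 0.425. Those of the 3 pairs of replicate 3 were 0.178 to 0.425. Arrays with different numbers ran from -0.59 (HET 3 with WT 2) to 0.413 (HET 3 with WT 1), so these values do not show that a number marks a pairing. Replicate 3 was the lowest array in every genotype for Dusp4, Dusp6, Spry1 and Spry4, which was not counted over all genes. In HET against WT the count of genes was 0, 6 with array weights, 4 without KO 1 and WT 2 and 0 to 5 with 1 array left out. In KO against HET it was 2875, 1739 with the Eif2s3y covariate and 1508 to 3149 with 1 array left out. Members called there were 5, 2 with only those genotypes fitted, 3 with the Eif2s3y covariate, 7 with the replicate block and 2 to 5 with 1 array left out. Of the relations to the immediate early average, 1 passed after quantile normalization.

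In the 3 comparisons the members' signs turned only for the values given here. In KO against WT, centring gave -0.0122 for Dusp5, -0.0378 for Dusp6 and -0.0201 for Spry1, and leaving out 1 array gave -0.0672 to 0.13 for Dusp6 and -0.0070 to 0.10 for Spry1. In HET against WT, centring gave -0.0255 for Dusp2, -0.0126 for Dusp5 and -0.0316 for Spry4, quantile normalization -0.0488 for Dusp2 and 0.0083 for Dusp4, and array weights -0.0501 for Dusp2, 0.0315 for Dusp4 and 0.0353 for Spry2. The Eif2s3y covariate gave -0.0086 for Spred1 and -0.0513 for Spry4, and leaving out KO 1 and WT 2 gave -0.0369 for Dusp2 and 0.0186 for Dusp4. Leaving out 1 array gave -0.0369 to 0.0583 for Dusp2, -0.11 to 0.10 for Dusp4, -0.0470 to 0.0924 for Dusp5, -0.0282 to 0.14 for Spry1, -0.0869 to 0.17 for Spry4 and -0.0304 to 0.12 for Spred1. In KO against HET, quantile normalization gave 0.0347 for Spry1, array weights -0.0119 for Dusp5, and the Eif2s3y covariate 0.0537 for Dusp6 and 0.0618 for Spry1. Leaving out 1 array gave -0.0371 to 0.10 for Dusp5, -0.17 to 0.0160 for Dusp6 and -0.0916 to 0.0756 for Spry1. Correlations with the immediate early average also turned, beside those without HET 1 and WT 1, for Dusp8 without the filter, to 0.0129, and with centring for Dusp4, to 0.25, Dusp6, to 0.11, Spry1, to 0.0221, and Spred1, to 0.18.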
